A study of Arabidopsis thaliana with 18 samples.

Results

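The light-harvesting antenna of photosystem I (PSI) is built from proteins of the LHCA family. The 6 Arabidopsis genes LHCA1 (AT3G54890), LHCA2 (AT3G61470), LHCA3 (AT1G61520), LHCA4 (AT3G47470), LHCA5 (AT1G45474) and LHCA6 (AT1G19150) were chosen by family name from 34212 genes in the deposited files, with earlier results of these data known. All 6 passed the filter on low counts, as did 16747 genes in total. Their mRNA was followed in whole Col-0 seedlings by RNA sequencing during deetiolation, the switch from growth in darkness to growth in light. Seedlings had spent 5 days in darkness, and were either collected in the dark under green light or given white light (WL) for 15, 30, 60, 150 or 360 min, with 3 libraries in each of the 6 groups. All groups share the wild-type background and the dark growth. The dark group was sampled at a single time, so the length of WL and the hours elapsed cannot be told apart. In whole seedlings, fewer cells expressing a gene and less RNA per cell cannot be told apart either.

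LHCA proteins bind chlorophyll a, chlorophyll b and carotenoids, and pass the energy of absorbed light to the PSI core. LHCA1 and LHCA4 form a heterodimer, LHCA2 and LHCA3 form another, and both dimers lie along the same side of the core. LHCA5 and LHCA6 are present at far lower levels than the other members and join PSI to the chloroplast NADH dehydrogenase-like (NDH) complex, which takes part in cyclic electron flow. In darkness, PIF transcription factors accumulate and repress many genes of photosynthesis, and phytochromes that have absorbed light remove them. Light also lets the activator HY5 accumulate, which binds many of the same G-box sequences.

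The gene starts lie at separate places of the genome (TAIR10.1, RefSeq annotation). LHCA1 is at chr3:20339504-20341176 on the minus strand, LHCA2 at chr3:22745514-22747444 on the plus strand, LHCA3 at chr1:22699715-22701412 on the plus strand, LHCA4 at chr3:17493343-17495033 on the minus strand, LHCA5 at chr1:17179250-17180806 on the plus strand and LHCA6 at chr1:6612630-6613972 on the plus strand. The 250 bases before each annotated start are shown because motifs bound by light-signaling factors can be read in them. The fitted changes of the 6 genes differed in size, and whether these motifs bear on that was not tested. Capitals mark the motifs searched on both strands: the G-box CACGTG, the PIF-binding E-box CATGTG or CACATG, the I-box core GATAAG or CTTATC, and the CCAAT box CCAAT or ATTGG. None of these motifs overlapped another in the 6 sequences, which are read 5′ to 3′ towards the gene.
LHCA1: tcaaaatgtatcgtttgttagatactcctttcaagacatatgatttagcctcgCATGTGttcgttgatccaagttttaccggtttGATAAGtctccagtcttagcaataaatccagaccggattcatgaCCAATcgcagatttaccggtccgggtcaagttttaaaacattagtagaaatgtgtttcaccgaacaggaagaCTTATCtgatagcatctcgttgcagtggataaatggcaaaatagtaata
LHCA2: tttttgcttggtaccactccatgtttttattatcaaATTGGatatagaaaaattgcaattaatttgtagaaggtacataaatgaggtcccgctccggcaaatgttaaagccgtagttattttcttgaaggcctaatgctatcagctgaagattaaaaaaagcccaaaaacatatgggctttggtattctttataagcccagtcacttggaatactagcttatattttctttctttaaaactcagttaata
LHCA3: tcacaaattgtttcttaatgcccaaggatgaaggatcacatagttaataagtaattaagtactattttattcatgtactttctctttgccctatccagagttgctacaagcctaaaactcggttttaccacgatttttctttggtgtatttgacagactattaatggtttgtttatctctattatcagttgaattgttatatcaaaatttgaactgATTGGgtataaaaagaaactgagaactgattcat
LHCA4: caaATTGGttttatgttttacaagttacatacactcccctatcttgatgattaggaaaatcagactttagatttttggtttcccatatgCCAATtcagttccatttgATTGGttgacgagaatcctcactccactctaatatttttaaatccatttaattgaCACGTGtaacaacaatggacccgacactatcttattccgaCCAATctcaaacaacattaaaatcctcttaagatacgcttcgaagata
LHCA5: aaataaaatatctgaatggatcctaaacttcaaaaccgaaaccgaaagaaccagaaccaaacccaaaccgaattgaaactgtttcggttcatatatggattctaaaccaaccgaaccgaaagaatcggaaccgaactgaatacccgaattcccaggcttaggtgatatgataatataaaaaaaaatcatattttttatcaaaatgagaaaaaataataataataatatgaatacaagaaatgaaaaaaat
LHCA6: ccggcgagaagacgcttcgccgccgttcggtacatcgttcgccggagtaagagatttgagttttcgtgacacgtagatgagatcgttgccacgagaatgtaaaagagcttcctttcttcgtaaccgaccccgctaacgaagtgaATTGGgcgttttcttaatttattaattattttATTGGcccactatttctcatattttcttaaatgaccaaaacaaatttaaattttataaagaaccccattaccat

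The G-box was found only in the LHCA4 sequence among these 6, with its first base at position -88 from the start. It occurs in 6.5% of 27443 Arabidopsis sequences of the same kind. LHCA1 alone held a PIF-binding E-box, at -197, a motif present in 11.1% of all the sequences. LHCA1 also held the only I-box cores, at -165 and -49, compared with 12.3% of all sequences that hold at least 1. CCAAT boxes were found in every member but LHCA5, with 4 of them in LHCA4, and occur in 46.0% of all sequences. A match describes these letters in this window, and binding was not measured.

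Encoded proteins of the family are related but distinct, with between 40.1% identical residues (LHCA1 and LHCA5) and 59.1% (LHCA2 and LHCA6) in pairwise alignments. LHCA1, LHCA3 and LHCA6 shared no stretch of 31 bases with another gene. For LHCA2, 15.09% of such stretches also occurred elsewhere, most often in AT5G28450, which had between 0 and 27 counts in a library. LHCA4 overlaps AT3G47460 on the opposite strand by 53 bases and LHCA5 overlaps AT1G45545 by 192 bases. The count of AT3G47460 was at most 137, and that of AT1G45545 at most 32. AT1G45545 had 30 counts in dark replicate 2 and 30 in replicate 3 at 60 min. It had 32 in replicate 1 at 150 min, 26 in replicate 3 at 360 min and at most 7 in the others. The share of LHCA5 reads that could be antisense is not known in any library, and it matters most where LHCA5 is itself low.

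Total counts were between 3577432 and 16156302 in a library, but plastid 23S ribosomal RNA took 3.37% to 83.9% of them, leaving 1999671 to 10821472. Replicates correlated with each other at a mean Pearson's r of 0.691 to 0.921, with the lowest values in the 60 and 360 min groups. These coefficients cover tested genes with a mean normalized count of 10 or more. Replicate 3 at 60 min stood apart. It had the lowest total and the lowest share of 23S ribosomal RNA, and its LHCA1 reads, and part of its LHCA3 reads, fell on transcripts that were low in the remaining 17 libraries. The 60 min results are given with and without it. Of 5 light-response control genes, 4 were higher and PORA, a protochlorophyllide reductase gene known to be repressed by light, was lower at 150 and at 360 min. Summed over 8 root markers, normalized counts were 6636 to 20470 in the dark and 9131 to 21740 at 360 min. PYK10 made up most of these sums, with means of 11180 and 13050, and CASP1 came next with 726 and 940. In each of these groups, 3 of the 8 root markers were detected in all libraries and 1 was at 0 in all. Over 5 seed storage markers the summed counts were 10.99 to 2621 in the dark and 15.47 to 21.17 at 360 min. Of these 5 markers, 1 and 2 were at 0 in all libraries of those groups. The part of seed RNA in the dark group's values was not tested.

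Together, the 6 LHCA genes took 0.0568% to 0.137% of the counts outside 23S ribosomal RNA in dark libraries. At 15 min this share was 0.041% to 0.0741%, and at 30 min 0.0793% to 0.0966%, both within or below the range of the dark. The lowest and highest shares were 0.167% and 0.267% at 60 min, 0.48% and 0.686% at 150 min, and 0.33% and 0.631% at 360 min, so that from 60 min on every light library lay above every dark library.

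Over the whole time course, 5 of the 6 genes changed in the quasi-likelihood test of edgeR (Benjamini-Hochberg adjusted p under 0.01), compared with 5.02% of all genes tested. The adjusted p was 5.89e-09 for LHCA1, 1.18e-07 for LHCA4, 6e-07 for LHCA3, 2.11e-05 for LHCA5 and 5.07e-05 for LHCA2 in this test by edgeR. LHCA6 did not pass it, with an adjusted p of 0.042 by edgeR. The same 5 genes passed without replicate 3 at 60 min, and LHCA6 had an adjusted p of 0.0472 by edgeR. These p-values weigh the differences between groups against the spread between the libraries of a group.

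**Figure D1:**
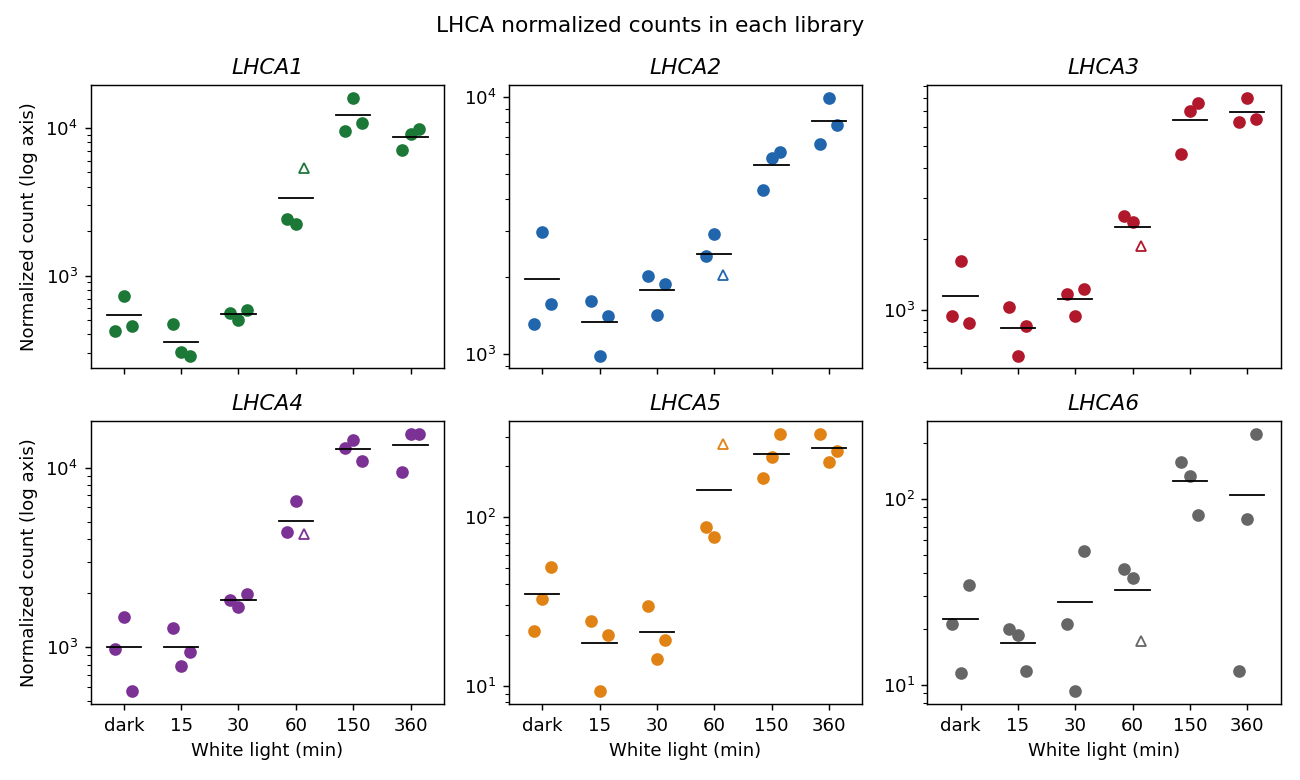
Normalized counts (log axis, a separate scale for each gene) of the 6 LHCA genes against minutes of WL. Points are libraries, black lines are means of 3, and the open triangle is replicate 3 at 60 min; LHCA1 to LHCA4 lie above their dark libraries at 150 and 360 min, while LHCA6 at 360 min spans 11.9 to 224.

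LHCA1 showed the largest fitted change of the family at 150 and 360 min. Its normalized counts were 426, 733 and 455 in the dark libraries, 469, 304 and 288 at 15 min, and 563, 502 and 582 at 30 min. They were 2411, 2238 and 5381 at 60 min, 9581, 15981 and 10869 at 150 min, and 7072, 9085 and 9794 at 360 min. The 15 and 30 min libraries each overlapped the dark, those at 30 min lay above those at 15 min, and every library from 60 min on was above all of these. The log2 fold change against dark was 2.64 (SE 0.413, adjusted p = 0.000633 by edgeR) at 60 min, 4.50 (SE 0.449, adjusted p = 7.34e-07) at 150 min and 4.01 (SE 0.439, adjusted p = 1.98e-06) at 360 min, or 6.21-fold, 22.6-fold and 16.1-fold. Without replicate 3 at 60 min, which had the highest value of its group, the 60 min change was 2.11 with an adjusted p of 0.00172 by edgeR. Among all 16747 genes, LHCA1 ranked 69th by log2 fold change at 150 min.

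LHCA4, the partner of LHCA1 in the antenna, rose at the same time points. Its normalized counts were 979, 1471 and 568 in the dark, 1287, 786 and 938 at 15 min, and 1829, 1673 and 1980 at 30 min. They reached 4366, 6533 and 4290 at 60 min, 12842, 14176 and 10856 at 150 min, and 9409, 15354 and 15459 at 360 min. At 30 min every light library was above every dark library, a separation that no other member showed. How many of all genes separated in this way was not counted. The log2 fold change of 0.86 (SE 0.383) did not pass the test, with an unadjusted p of 0.0352 and an adjusted p of 1 by edgeR. The changes that passed were 2.33 (SE 0.399, adjusted p = 0.00152 by edgeR) at 60 min, 3.65 (SE 0.422, adjusted p = 5.33e-06) at 150 min and 3.73 (SE 0.424, adjusted p = 3.03e-06) at 360 min, the last of these a 13.3-fold difference. Without replicate 3 at 60 min the change there was 2.44 (adjusted p = 0.00133 by edgeR). The 60 min call did not hold without the first dark library (2.31, adjusted p = 0.0162 by edgeR) or without the third (2.04, adjusted p = 0.017).

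LHCA3 rose later in the test and by less. It had normalized counts of 942, 1610 and 875 in the dark, 1025, 636 and 850 at 15 min, and 1167, 934 and 1222 at 30 min. At 60 min its values were 2509, 2362 and 1862, all above the dark, with a log2 fold change of 0.97 (SE 0.350) and an adjusted p of 0.233 by edgeR, or 1.09 (adjusted p = 0.155) without replicate 3. Values of 4593, 7029 and 7624 at 150 min and 6291, 7984 and 6466 at 360 min gave changes of 2.49 (SE 0.366, adjusted p = 0.000103 by edgeR) and 2.60 (SE 0.368, adjusted p = 4.98e-05).

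LHCA2, the partner of LHCA3, showed the smallest fitted change of the family at 360 min. Its normalized counts were 1309, 2994 and 1569 in the dark, 1602, 987 and 1412 at 15 min, and 2012, 1425 and 1880 at 30 min. At 60 min, 2411, 2942 and 2031 still overlapped the dark range, with a log2 fold change of 0.33 (adjusted p = 0.833 by edgeR), or 0.45 (adjusted p = 0.637) without replicate 3. LHCA2 then had 4341, 5802 and 6116 at 150 min, with a log2 fold change of 1.47 (SE 0.373) that did not pass the test (adjusted p = 0.0197 by edgeR). At 360 min, values of 6537, 9921 and 7775 gave a change of 2.04 (SE 0.380, adjusted p = 0.000956 by edgeR), or 4.13-fold. The second dark library was the highest of its group for LHCA1 to LHCA4, and without it the 150 min change of LHCA2 was 1.91 with an adjusted p of 0.00584 by edgeR. The 360 min call was lost without the first dark library (1.82, adjusted p = 0.012 by edgeR) and without the third (1.91, adjusted p = 0.0105).

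LHCA5, which joins PSI to the NDH complex, had few reads and was called higher at 150 and 360 min. Normalized counts were 21.2, 32.6 and 50.8 in the dark, 24.2, 9.29 and 20.2 at 15 min, and 29.8, 14.4 and 18.7 at 30 min. At 60 min they were 87.6, 76.8 and 272, the last from the library that stood apart. The log2 fold change of 2.09 (SE 0.563, adjusted p = 0.068 by edgeR) at 60 min became 1.26 (adjusted p = 0.324) without that library. With 170, 229 and 310 at 150 min and 313, 212 and 248 at 360 min, LHCA5 was higher than in the dark by 2.77 (SE 0.574, adjusted p = 0.00373 by edgeR) and 2.90 (SE 0.577, adjusted p = 0.00195) on the log2 scale. Those calls depended on single libraries: at 150 min the adjusted p by edgeR was 0.0398 and 0.027 without the first and second dark library, and 0.013 and 0.0188 without replicates 2 and 3 of the 150 min group. At 360 min it was 0.0219 and 0.015 by edgeR without the first and second dark library.

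LHCA6, the other member tied to the NDH complex, was the least certain. It had normalized counts of 21.2, 11.6 and 34.5 in the dark, 19.9, 18.6 and 11.9 at 15 min, and 21.2, 9.21 and 52.6 at 30 min. The 60 min libraries had 42.0, 37.4 and 17.2, a log2 fold change of 0.53 (adjusted p = 0.886 by edgeR), or 0.85 (adjusted p = 0.724) without replicate 3. At 150 min, 157, 133 and 81.6 were all above the dark, with a log2 fold change of 2.50 (SE 0.828) and an adjusted p of 0.0983 by edgeR. At 360 min the 3 libraries gave 11.9, 77.6 and 224, which overlapped the dark, from only 3, 22 and 376 counts. The change of 2.28 (SE 0.823, adjusted p = 0.0952 by edgeR) became 2.81 (adjusted p = 0.0214) without the first of them and 1.03 (adjusted p = 0.437) without the third. A change of LHCA6 was not detectable at the threshold with this depth and spread.

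**Figure D2:**
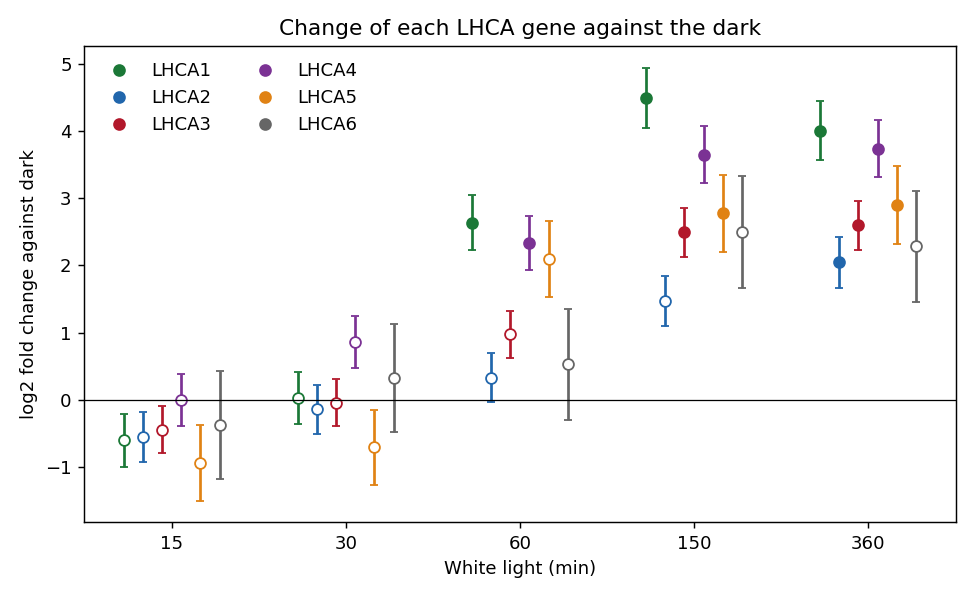
Log2 fold change of each LHCA gene against dark (vertical axis) by minutes of WL, with 1 SE. Filled points passed edgeR's test at an adjusted p of 0.01; they number 0, 0, 2, 4 and 5 from 15 to 360 min.

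Counted by time point, no member was called higher at 15 min, when 0% of all genes were, and none had an unadjusted p under 0.05 in edgeR. The median log2 fold change of the 6 genes was -0.50 at 15 min, beside -0.007 over all genes. At 30 min again 0 members were called, against 0.0836% of all genes, with 1 member (LHCA4) at an unadjusted p under 0.05 and a median of -0.01. DESeq2 also called 0 members at each of these time points. At 60 min 2 members were called (LHCA1 and LHCA4) against 0.8% of all genes, and the median of the 6 genes was 1.53. The same 2 were called without replicate 3, with a median of 1.17. At 150 min 4 were called (all but LHCA2 and LHCA6) against 2.2% of all genes, with a median of 2.64. At 360 min 5 were called (all but LHCA6) against 3.47% of all genes, with a median of 2.75 beside -0.033 over all genes. No member was called lower at any time.

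Most of the difference arose between 30 and 150 min. From 30 to 60 min, LHCA1 rose by 2.61 on the log2 scale (SE 0.413, adjusted p = 0.00518 by edgeR), the only member called, in a step where 0.0657% of all genes were. This call was lost without replicate 3 at 60 min (2.08, adjusted p = 0.0173 by edgeR) and without each of the 30 min libraries (adjusted p of 0.0761, 0.064 and 0.0482). LHCA5 had a larger but less certain difference in the same step (2.80, adjusted p = 0.0283 by edgeR), which was 1.96 (adjusted p = 0.211) without that 60 min library. From 60 to 150 min 0 members were called, against 0.119% of all genes, although 5 had an unadjusted p under 0.05 in edgeR, with LHCA1 at 1.86 (adjusted p = 0.0363). Without replicate 3 at 60 min this LHCA1 step was 2.39 (SE 0.392) and passed, with an adjusted p of 0.0087 by edgeR. From 15 to 30 min 0 members and 0% of all genes were called, with LHCA4 alone at an unadjusted p under 0.05 in edgeR. From 150 to 360 min 0 members and 0% of genes were called by edgeR, none had an unadjusted p under 0.05, and the changes lay between -0.49 for LHCA1 and 0.58 for LHCA2. DESeq2 was not run on these steps.

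Because the fitted changes of the genes differed in size, the makeup of LHCA mRNA was compared within each library. The measure was the share of each gene in the summed TPM (a level per transcript length, relative to the library's total) of the 6 genes. In the dark, LHCA2 held the largest share, 37.1% ± 4.86 (SD, n = 3). LHCA4 followed with 24.7% ± 5.81 and LHCA3 with 24.5% ± 0.824, whose ranges overlapped, then LHCA1 with 12.1% ± 1.19. LHCA5 with 1.00% ± 0.637 and LHCA6 with 0.653% ± 0.462 overlapped each other and were far below. At 360 min LHCA4 led with 39.4% ± 3.64 and LHCA1 came next with 22.99% ± 1.61. LHCA2 had 18.7% ± 1.78 and LHCA3 17.9% ± 2.53 at 360 min, with overlapping ranges. LHCA5 was at 0.842% ± 0.348 and LHCA6 at 0.279% ± 0.287, again overlapping.

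**Figure D3:**
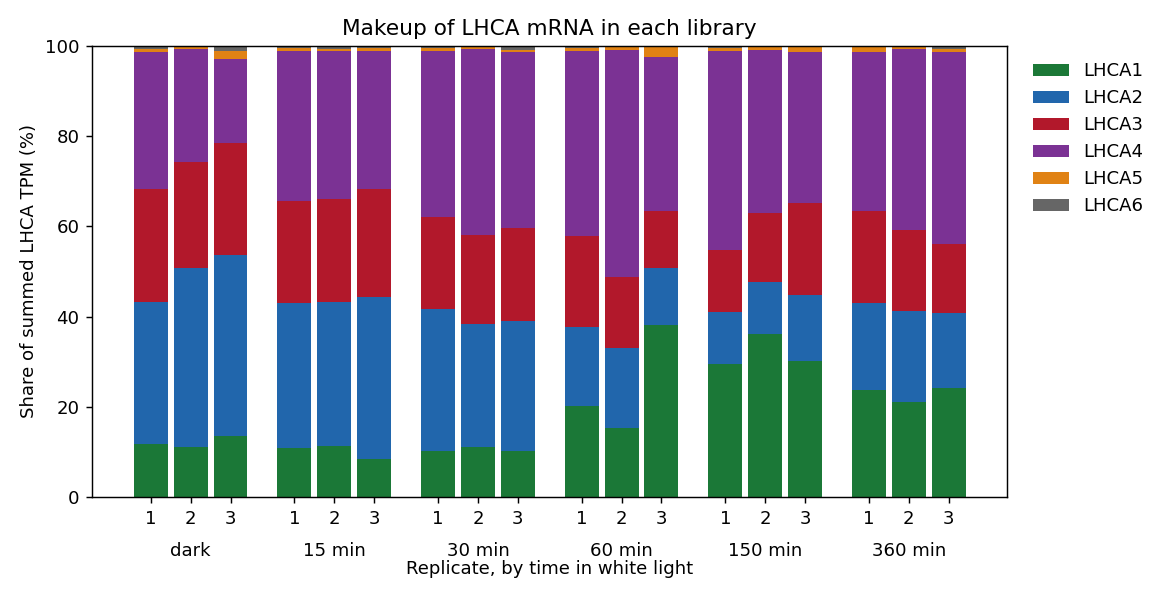
Share of each LHCA gene in the summed LHCA TPM (vertical axis, %) in the 18 libraries, grouped by time in WL. LHCA2 (blue) takes 31.5% to 40.3% in the dark and 16.7% to 20.1% at 360 min, and LHCA4 (purple) 18.7% to 30.3% and 35.4% to 42.6%.

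The share of LHCA4 was above every dark library in all libraries of all 5 light groups, with 32.2% ± 1.35 at 15 min and 39.0% ± 2.16 at 30 min. At 15 min the gap was narrow, from 30.3% in the highest dark library to 30.66% in the lowest light library. The LHCA4 level itself had a log2 fold change of -0.005 at 15 min. LHCA3 was below the dark from 30 min on (20.3% ± 0.440 at 30 min), and LHCA2 from 60 min on (15.9% ± 2.90 at 60 min, 12.6% ± 1.85 at 150 min). LHCA1 was slightly below the dark at 30 min (10.5% ± 0.507), and above it from 60 min on, with its highest share at 150 min (31.9% ± 3.76). Each of these separations had p = 0.1 in a two-sided exact permutation test, the smallest p that 3 libraries against 3 can give, and an adjusted p of 0.188 over 30 such tests, so none could reach 0.05. Replicate 3 at 60 min had the highest LHCA1 share of its group, 38.2%, and the other pair of libraries had 15.4% and 20.1%, still above the dark. Their mean shares were 17.6% for LHCA2, 17.95% for LHCA3 and 45.6% for LHCA4.

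Relative to the mean of the log2 levels of LHCA1 to LHCA4, LHCA5 did not move beyond its spread. The mean log2 ratio was -4.64 in the dark and -4.86 at 360 min, a difference of -0.22 (exact permutation p = 0.7, two-sided). For LHCA6 the log2 ratio was -5.40 in the dark and -6.98 at 360 min, a difference of -1.59 (exact permutation p = 0.2) that ranged from -2.46 to -0.671 when single libraries were left out. The adjusted p was 0.875 for both, over 10 exact permutation tests. These p-values do not show that the ratios were equal.

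Relative to the PSI core, LHCA1 to LHCA4 lay above all dark libraries in every library of 3 of the 5 light groups. The mean log2 ratio of their summed TPM to that of 12 nuclear PSI core genes was -1.29 in the dark and above every dark library at 30 min (difference 0.44), 150 min (0.71) and 360 min (0.44). Each of these 3 differences had p = 0.1, the smallest possible, in the exact permutation test, and an adjusted p of 0.25 over 10 tests. At 360 min the gap was narrow, from -1.037 in the highest dark library to -1.007 in the lowest light library. At 60 min the difference was 0.50 (exact permutation p = 0.2), with ratios of -0.784, -0.442 and -1.129 in replicates 1 to 3. Only replicate 3, the library that stood apart, overlapped the dark there. Leaving out single libraries gave 60 min differences of 0.333 to 0.677. Against the 15 LHCB genes, which encode the antenna of photosystem II, the ratio was above the dark at 30 min (difference 0.46, exact permutation p = 0.1). It differed by 0.73 at 60 min and 0.38 at 150 min, with overlap of the dark (exact permutation p = 0.2 for each). Replicate 3 at 60 min was highest of its group, -0.491 beside -1.764 and -1.181, and leaving out single libraries gave 0.404 to 1.04. At 360 min the difference was 0.04 (exact permutation p = 0.8).

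**Figure D4:**
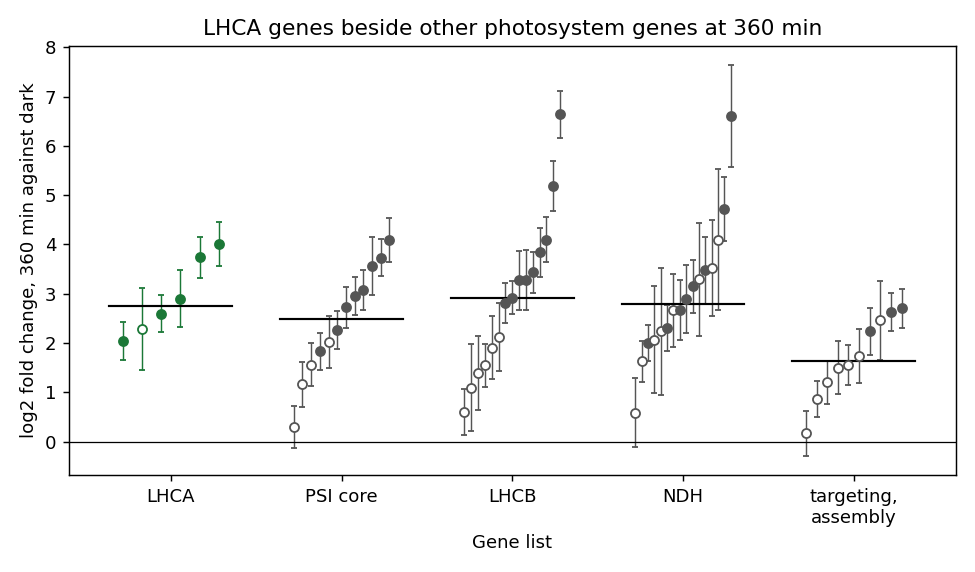
Log2 fold change at 360 min against dark (vertical axis, with 1 SE) for the tested genes of 5 lists, ordered within each list. Filled points passed edgeR's test at an adjusted p of 0.01 and black lines are list medians, which are 2.75 for LHCA, 2.50 for the PSI core, 2.91 for LHCB, 2.78 for NDH and 1.64 for targeting and assembly.

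Many other genes of the same machinery were also called higher at 360 min, and none of the tested genes of these lists was called lower at any time point. At that time 8 of 12 PSI core genes were called higher, compared with 3.47% of all genes, with a median log2 fold change of 2.50. The highest were PSAK (4.08, adjusted p = 1.98e-06 by edgeR) and PSAO (3.73, adjusted p = 5.69e-07), small membrane subunits of PSI. The lowest were PSAH1 (1.16, adjusted p = 0.128 by edgeR), near the site where the antenna of photosystem II docks, and PSAE2 (0.30, adjusted p = 0.734), a stromal subunit near the ferredoxin site. The other listed gene of each of these subunits was called higher, PSAH2 by 3.08 (adjusted p = 2.04e-05 by edgeR) and PSAE1 by 3.56 (adjusted p = 0.000281). Of 15 LHCB genes 9 were called, with a median of 2.91. LHCB1.1 (6.64) and LHCB1.2 (5.19), which encode the major trimeric antenna, were highest, and since they are near-identical copies their separate values are uncertain. LHCB4.3 (1.09) and LHCB4.2 (0.60), which encode the minor antenna protein CP29, did not pass.

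Of the 16 NDH genes tested 8 were called at 360 min, with a median log2 fold change of 2.78. PNSL3, the other gene of that list, did not pass the filter on low counts. NDHU (6.60, adjusted p = 0.000153 by edgeR) rose from a mean of 2.71 normalized counts in the dark to 288, and PNSL1, a subunit on the lumen side, by 4.72 (adjusted p = 3.81e-05). NDHS (1.63, adjusted p = 0.014 by edgeR), part of the ferredoxin-binding site, and NDHO (0.58, adjusted p = 0.678) did not pass. Of 10 genes for protein targeting and PSI assembly 3 were called, with a median of 1.64. PSA2 (2.70) and Y3IP1 (2.63), both PSI assembly factors, were highest. CPSRP54 (0.86), which carries antenna proteins through the stroma, and ALB3 (0.17), which inserts them into the thylakoid, did not pass. At 60 min edgeR called 1 PSI core gene and 4 LHCB genes, and these counts were the same without replicate 3.

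Across the 18 libraries, the genes whose log2 normalized counts were most like the mean of LHCA1 to LHCA4 were FBA1, a plastid aldolase (Pearson's r 0.991), PSAO (0.987) and FED A, a ferredoxin that takes electrons from PSI (0.986). The points share their library and their time point, so these coefficients describe the time course and carry no test. Without replicate 3 at 60 min they were 0.991, 0.991 and 0.988 over 17 libraries. LHCA5 ranked 143rd (0.923) and LHCA6 994th (0.693) of 16375 genes in that likeness. For LHCA5 the nearest genes were GGT1, a photorespiratory aminotransferase (0.958), TLP18.3, a thylakoid lumen protein (0.957), and ENH1 (0.954), with LHCA1 the 4th (0.952). Without replicate 3 at 60 min the coefficient of LHCA5 with LHCA3 was 0.961, with GGT1 0.965 and with LHCA1 0.955. For LHCA6 they were ADC1, an arginine decarboxylase (0.919), AT3G15520 (0.889) and BETA-OHASE 1, a carotenoid hydroxylase (0.877), and the nearest LHCA gene was LHCA4 in rank 226 (0.694), or LHCA1 (0.743) without replicate 3 at 60 min.

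The estimated counts are given per transcript, so the transcript makeup of each gene could be compared. For LHCA1 the leading transcript took 86.4% to 100% of the gene's TPM in 17 libraries. In replicate 3 at 60 min it took 11.9%, and 2 transcripts that were near 0 elsewhere took 55.2% and 31.9%. The same library had 43.0% of LHCA3 TPM in that gene's leading transcript, beside 90.0% or more in all others. All LHCA5 reads in it (238 estimated counts) fell on the transcript that does not lead over all libraries, as they also did in dark replicate 2 (60 estimated counts). AT1G45545, which overlaps LHCA5 on the opposite strand, had 30 counts in each of these libraries. Whether antisense reads enter these LHCA5 values was not tested. Among the dark libraries LHCA1's leading transcript held 99.7% ± 0.452, and its share was lower in all light libraries, at 96.3% ± 2.22 at 15 min and 96.5% ± 1.42 at 360 min. This was p = 0.1, the smallest possible, in a two-sided exact permutation test, with an adjusted p of 0.429 over 30 tests.

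**Figure D5:**
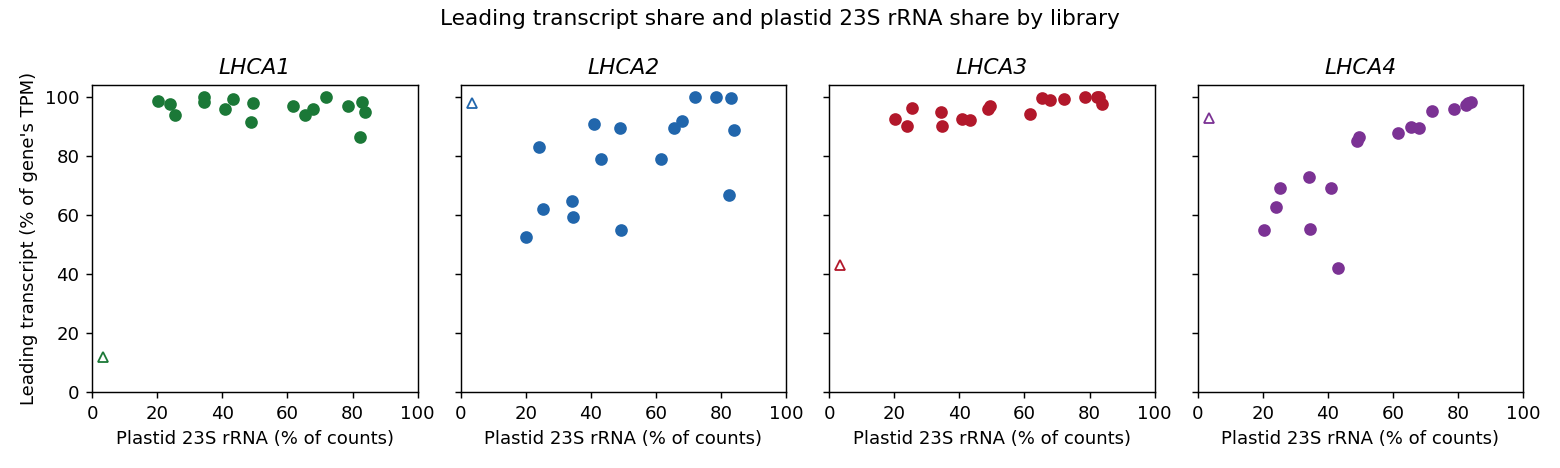
Share of the leading transcript in the TPM of LHCA1 to LHCA4 (vertical axis, %) against the share of plastid 23S ribosomal RNA in the library's counts (horizontal axis, %), 1 point per library. The open triangle is replicate 3 at 60 min; for LHCA4 the other 17 points rise from 42.1% to 98.3%.

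For LHCA4 the leading transcript's share went with a property of the library. It was 55.3%, 42.1% and 95.3% in the dark libraries, which had 34.5%, 43.2% and 72% of their counts in plastid 23S ribosomal RNA, and 98.3%, 96.0% and 62.8% at 360 min, where that share was 83.9%, 78.6% and 24%. Over the 17 libraries without the one that stood apart, Pearson's r was 0.851 and Spearman's rho 0.926 for LHCA4, 0.819 and 0.806 for LHCA3, and 0.619 and 0.600 for LHCA2. For LHCA1 Pearson's r was -0.301, for LHCA5 -0.049 and for LHCA6 -0.492. This relation was noticed after the values were seen and is a description over libraries that share groups, with no test. No transcript of LHCA4 differed between a light group and the dark beyond the replicate spread (exact permutation p of 0.2 or more, adjusted p of 0.75 or more). LHCA6 reads fell wholly on 1 transcript in 15 of the 18 libraries, not always the same one. These 15 libraries had from 3 to 114 estimated counts of LHCA6.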

How the data were processed

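RNA sequencing libraries (18, in 6 groups of 3) were grouped by their labels. The labels and the study's methods disagree on the WL intensity and the library preparation, and neither is used here. With kallisto and the AtRTD2-QUASI transcripts, the authors quantified quality-filtered single reads, and they deposited estimated counts and TPM (relative to the library, plastid ribosomal RNA included) for 82190 transcripts in each library. The kallisto options in the study's methods include no strand setting, so a gene and its antisense partner are not separated. The authors also deposited a normalized gene table (signal: summed estimated counts divided by a size factor per library), in which 100% of the values above 0 were whole reads within 0.01. The submitters' notes name DESeq 1.36.0 and edgeR 3.26.8.

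Length-scaled gene counts were made from the deposited estimated counts and TPM and rounded. Genes with 0 counts in at least 2 replicates of any group were removed, as in the study's methods, which left 16747 of 34212. R 4.3.3 with edgeR 4.0.16 (TMM, robust quasi-likelihood, all 18 libraries) tested each light group against dark and successive time points, with Benjamini-Hochberg adjustment over all genes and a threshold of 0.01. The test was checked on simulated counts. Shares and log2 ratios used TPM (plus 0.1 for ratios) and exact permutation tests in Python 3.11.15 with scipy 1.17.1. Motifs and 31-base stretches were read from TAIR10.1. The biological coefficient of variation between replicates was 0.540 in this fit. Members and gene lists were chosen with earlier results of these data known. Named genes are all 6 members, the 3 tested genes (mean normalized count 10 or more) most correlated with LHCA1 to LHCA4, LHCA5 and LHCA6, and the 2 highest and 2 lowest of each list at 360 min. PSAH2 and PSAE1 were added beside PSAH1 and PSAE2. Alternatives included DESeq2 1.42.0, other scalings and filters, the recovered whole reads, a replicate block and leaving out each library.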

Additional observations from a re-analysis of the deposited data

Results flagged for a closer look

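The LHCA1 difference between 60 and 30 min of WL passed edgeR's test of the difference itself (log2 fold change 2.61, adjusted p = 0.00518). All 3 libraries at 60 min were above all 3 at 30 min for LHCA1, as for 5 of the 6 members in all. How many of all genes separated in this way was not counted. Leaving out single libraries of these groups, an alternative chosen after seeing the data, gave 2.08 to 2.83 for LHCA1, with an adjusted p by edgeR of 0.00486 to 0.0761.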

How the results depend on the processing

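Of 810 values of the 30 member comparisons with the dark under the alternatives, 762 kept their direction and side of the threshold, 28 fell short of it, 3 newly passed it and 17 changed sign, all of these at 15 or 30 min and none called. Scaling by library totals that include plastid ribosomal RNA left 0 members called at 60, 150 and 360 min. All member changes there were still positive. Over all genes this scaling called only 1, 3 and 0 higher at these times, against 134, 368 and 581 in the main fit. It moved the median of all genes to -0.516 at 150 min and -0.647 at 360 min. It also gave LHCA6 0.00566 and LHCA4 0.0029 at 15 min and LHCA3 0.0893 at 30 min. Totals without 23S RNA called 3 at 360 min (median of all genes -0.393) and gave LHCA1 -0.0168 at 30 min. Fitting only the 2 groups compared called 0 at 60 min and 3 at 360 min. For this fit and for totals without 23S RNA, the calls over all genes are not given here. DESeq2 called 3, 5 and 5 members at 60, 150 and 360 min, and genes called higher went from 134, 368 and 581 to 286, 616 and 955. The cause of these differences was not tested. Leaving out single libraries gave 1 to 2 members called at 60 min (1 without dark replicate 1 or 3), 3 to 4 at 150 min and 3 to 5 at 360 min (3 without dark replicate 1). At 15 min it gave -0.298 to 0.374 for LHCA4 and -0.702 to 0.0416 for LHCA6. At 30 min it gave -0.116 to 0.318 for LHCA1, -0.365 to 0.3 for LHCA2, -0.217 to 0.286 for LHCA3 and -0.545 to 0.744 for LHCA6. The whole reads recovered from the normalized table called 586 genes higher at 360 min. The deviations of same-numbered replicates correlated at -0.391 to 0.424 over 45 pairs, with 11 over 0.1. Without the same values for pairs with different numbers, these cannot decide whether the numbers pair the libraries. With the replicate block 2, 4 and 5 members were called at 60, 150 and 360 min. In that fit genes called higher at 30 min went from 14 to 5, and LHCA4 at 15 min was 0.0536. The values without replicate 3 at 60 min for the time course, the 60 to 150 min step, shares and likeness were added after seeing the data.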
